A study of Saccharomyces cerevisiae with 8 samples.

Results

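The nuclear cyclins that drive the budding yeast cell cycle, together with *SIC1*, an inhibitor of cyclin-dependent kinase that is not itself a cyclin, were followed on Affymetrix yeast arrays of *Saccharomyces cerevisiae* grown with and without gentamicin. The genes were chosen by name, as probe sets annotated to 1 gene whose current symbol is *CLN1*, *CLN2*, *CLN3*, *CLB1* to *CLB6* or *SIC1*. All 10 genes were found, each with 1 probe set, among 5656 genes with a probe set annotated to 1 gene. Transcript levels were measured on 8 arrays, 4 from cells acclimated to gentamicin and kept in it throughout (samples 5 to 8) and 4 from cells that received none (controls 1 to 4). Both groups were strain 4073, grown in YPD and collected in mid-log phase. The dose reads 500 µg/ml in the sample labels, but mg/ml stands beside that number in the design text, so its unit is not settled. The labels give no genotype, mating type or cell cycle synchronisation, and do not say whether the 4 arrays of a group came from separate cultures, so p-values measure the spread between these arrays, which may be technical.

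In budding yeast, 1 kinase subunit, Cdc28, is handed from cyclin to cyclin through the cycle. Cln3 acts first in G1 and sets off transcription by the factors SBF (Swi4 with Swi6) and MBF (Mbp1 with Swi6), which raises *CLN1* and *CLN2* for budding and *CLB5* and *CLB6* for DNA replication. Sic1 holds the Clb kinases off until the Cln kinases mark it for destruction, and Clb1 to Clb4 then drive mitosis. Gentamicin is an aminoglycoside antibiotic that binds ribosomal RNA. Because mid-log cells are spread over all phases, a transcript level here is an average over the culture, and fewer cells in a phase cannot be told apart from less RNA per cell.

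Most of the tested cyclin transcripts did not differ detectably between the groups. The 2 genes whose groups did not overlap were mitotic cyclins, but the other mitotic cyclins, *CLB1* and *CLB3*, had overlapping groups. *CLB4* fell 1.40-fold with gentamicin, and *CLB2*, which was too dim to be tested, was 1.36-fold lower, with no overlap between the groups for either gene. Of all 5656 genes, 28.6% were lower without overlap, and the *CLB4* difference was no longer detected after quantile normalization. The 3 G1 cyclins, *CLB5* and *SIC1* had overlapping groups and log2 differences between -0.10 and -0.03. Of the 10 genes, 7 were bright enough to be tested, and *CLB1*, *CLB2* and *CLB6* were among the 20% of genes with the lowest mean signal, which were left out of the test. With limma and Benjamini-Hochberg adjustment over all 4524 tested genes (adjusted p under 0.05 is a call), 1 of the 7 was called lower and 0 were called higher, with the same counts at an unadjusted p under 0.05. Over all tested genes, 31.3% were called lower and 15.5% higher. With 7 genes tested, 1 call is not a result about the group. The median log2 difference was -0.08 over the 7 genes and -0.12 over all tested genes.

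Facts about the arrays bear on these values. Each array had been scaled to a trimmed mean near 1001. Median signals ran from 321 to 338 on gentamicin arrays and from 381 to 398 on control arrays. The choice of scaling factor for each array moves all log2 differences by a common amount. Aligning the array medians moved the median log2 difference of tested genes to 0.02, and quantile normalization moved it to -0.02, shifts of more than 0.1. Log2 differences of *CLN3* and *CLB4* are therefore also given relative to the median of tested genes. This does not remove shifts that differ between genes. Quantile normalization moved the dim *CLB4* from -0.49 to -0.24 and left the bright *CLN3* at -0.04. The *ACT1* controls for RNA integrity gave a 3′ over 5′ ratio of 1.43 ± 0.0881 on gentamicin arrays and 1.38 ± 0.107 on control arrays (SD, n = 4 each). As a lone low value, separated from the other 3 arrays of its group by Dixon's criterion on log2 signals, gentamicin 5 accounted for 159 of 304 such tested genes among gentamicin arrays and control 1 for 216 of 335 among control arrays. Control probe sets for transcripts absent from yeast, 4 for mouse genes and 9 for the reverse strand of bacterial spikes, reached a signal of 89.5. Their median signal was 5.51, and those for mouse genes reached 17.9.

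**Figure D1:**
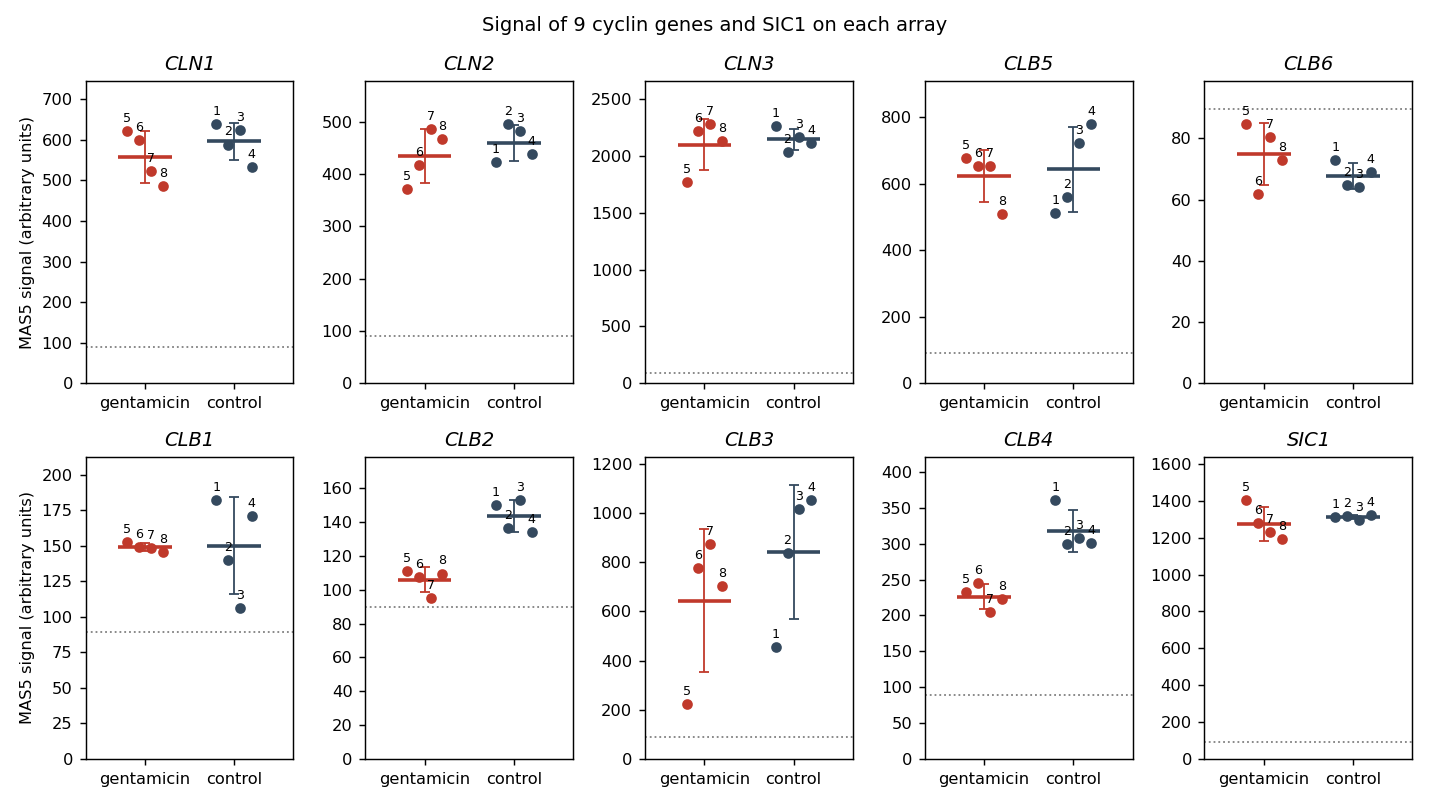
MAS5 signal in arbitrary units (vertical axes, each from 0) of the 9 cyclin genes and *SIC1* on each array, with gentamicin arrays in red at the left and control arrays in dark blue at the right of each panel. Points are arrays marked with their sample number, lines with bars are mean ± SD (n = 4 each), and the dotted line is the highest signal of controls for absent transcripts, 89.5. *CLB2* and *CLB4* are the genes whose groups do not overlap, *CLB6* lies under the dotted line on all 8 arrays, and *CLB3* has 1 low array in each group.

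Among the G1 cyclins, *CLN3* (locus YAL040C), the upstream activator of the G1 programme, had signals of 1772, 2221, 2279 and 2130 on gentamicin arrays 5 to 8, against 2264, 2038, 2163 and 2117 on controls 1 to 4. The groups overlapped, and gentamicin 5 was the lowest of the 8 arrays. The difference was -0.04 ± 0.09 (SE) on the log2 scale, or 0.09 above the median of tested genes (limma adjusted p = 0.760), with a 95% interval from -0.23 to 0.16. Leaving out gentamicin 5 turned the sign, to a log2 difference of 0.04 (adjusted p = 0.630).

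*CLN1* (YMR199W), whose product brings on budding and *SIC1* destruction together with that of *CLN2*, gave 622, 599, 523 and 485 with gentamicin, against 639, 589, 624 and 534 in controls. Its averages were 557 ± 64.0 with gentamicin and 596 ± 46.4 in controls (SD, n = 4 each), a log2 difference of -0.10 (adjusted p = 0.446). Its paralog *CLN2* (YPL256C) gave 370, 417, 485 and 467 with gentamicin, against 422, 495, 482 and 439 in controls. The difference was -0.08 on the log2 scale (adjusted p = 0.540), with a 95% interval from -0.32 to 0.15, against one from -0.33 to 0.13 for *CLN1*. On gentamicin arrays the highest *CLN1* signal and the lowest *CLN2* signal both came from gentamicin 5. After quantile normalization the log2 differences of *CLN1* and *CLN2* were 0.10 and 0.13, and with aligned medians 0.04 and 0.06, so neither has a settled direction.

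*SIC1* (YLR079W), which is transcribed as cells leave mitosis, had signals of 1405, 1277, 1231 and 1192 with gentamicin, against 1309, 1317, 1294 and 1324 in controls. The 4 controls lay within a coefficient of variation of 0.975%, while the gentamicin arrays had one of 7.26% and reached both above and below the controls. The log2 difference was -0.04 ± 0.07 (SE, adjusted p = 0.639), with the narrowest interval of the 7 tested genes, from -0.20 to 0.11. The within-group SD of its log2 signal, 0.0733, was at percentile 9.70 among tested genes. Its sign turned to 0.03 after quantile normalization and to 0.10 with aligned medians.

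Of the S phase cyclins, *CLB5* (YPR120C), the main activator of replication origins, gave 679, 655, 654 and 508 with gentamicin, against 512, 561, 722 and 779 in controls. The groups overlapped, and gentamicin 8 stood apart below the other gentamicin arrays. On the log2 scale the difference was -0.03 ± 0.15 (SE, adjusted p = 0.882), with a 95% interval from -0.38 to 0.31, and it changed sign when single arrays were left out (from -0.13 to 0.07). *CLB6* (YGR109C), its paralog and the earlier acting of the pair, gave 84.6, 61.7, 80.3 and 73.1 with gentamicin, against 72.9, 64.6, 64.0 and 69.1 in controls. All 8 signals were below the highest control for transcripts that yeast lacks, so its level is not resolved and no direction is drawn.

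Of the mitotic cyclins, *CLB4* (YLR210W), which acts in spindle assembly, gave 233, 245, 205 and 223 with gentamicin, against 361, 299, 308 and 301 in controls. Every gentamicin array lay below every control array, and control 1 stood above the other controls. *CLB4* fell by 0.49 ± 0.10 (SE) on the log2 scale (limma adjusted p = 0.00339), with a 95% interval from -0.71 to -0.26, and lay 0.36 below the median of tested genes. The call was kept without each array in turn (adjusted p from 0.00453 to 0.0115) and with aligned medians (log2 difference -0.34, adjusted p = 0.0280). It was lost after quantile normalization (log2 difference -0.24, adjusted p = 0.101), where limma called 0 of the 7 cyclin and *SIC1* genes (1 lower at an unadjusted p under 0.05), against 19.8% of tested genes lower and 18.8% higher. With aligned medians 1 was lower and 0 higher, against 17.7% and 23.9% of tested genes. Its mean signal was at percentile 5.86 of tested genes, close to the filter, with a geometric mean of 267 against a filter limit of 214.

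*CLB3* (YDL155W), the paralog of *CLB4*, gave 223, 777, 872 and 705 with gentamicin, against 456, 838, 1017 and 1053 in controls. The groups overlapped, and the lowest value of each group came from the array with the most lone low values over all genes, gentamicin 5 and control 1. The log2 difference was -0.49 ± 0.44 (SE, adjusted p = 0.390), about the size of that of *CLB4*, but its 95% interval ran from -1.47 to 0.50. Its within-group SD of log2 signal, 0.757, was at percentile 99.2 among tested genes. Without gentamicin 5 the log2 difference was -0.03 (adjusted p = 0.930), without control 1 it was -0.76 (adjusted p = 0.184), and without both it was -0.30 (adjusted p = 0.0656). Single arrays thus decide the size of the *CLB3* difference.

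*CLB2* (YPR119W), the main mitotic cyclin, gave 111, 108, 94.9 and 110 with gentamicin, against 150, 137, 153 and 134 in controls. The groups did not overlap, and the signals lay just above the highest control for absent transcripts, 89.5, but far above the median of those controls, 5.51. This was a log2 difference of -0.44. *CLB2* was not in the test, because its geometric mean signal of 123 was below the filter limit of 214. With no filter it was called lower (limma adjusted p = 0.00874 over 5656 genes). That fit used the deposited scaling alone, so whether the *CLB2* call holds under the other scalings was not tested. For *CLB2* the log2 difference was -0.26 after quantile normalization and -0.29 with aligned medians.

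*CLB1* (YGR108W), the paralog of *CLB2*, gave 153, 149, 149 and 146 with gentamicin, against 182, 140, 107 and 171 in controls. The gentamicin arrays lay inside the range of the controls, with a coefficient of variation of 1.91% with gentamicin and 22.8% in controls. *CLB1* had a log2 difference of 0.02, and with no filter it was not called (adjusted p = 0.929). Counting all 10 genes, tested or not, 2 had groups that did not overlap, both lower with gentamicin, while 41.8% of the 5656 genes had groups that did not overlap, and 28.6% were lower without overlap. The fit with no filter called 2 of the 10, *CLB2* and *CLB4*, against 42.8% of all genes.

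**Figure D2:**
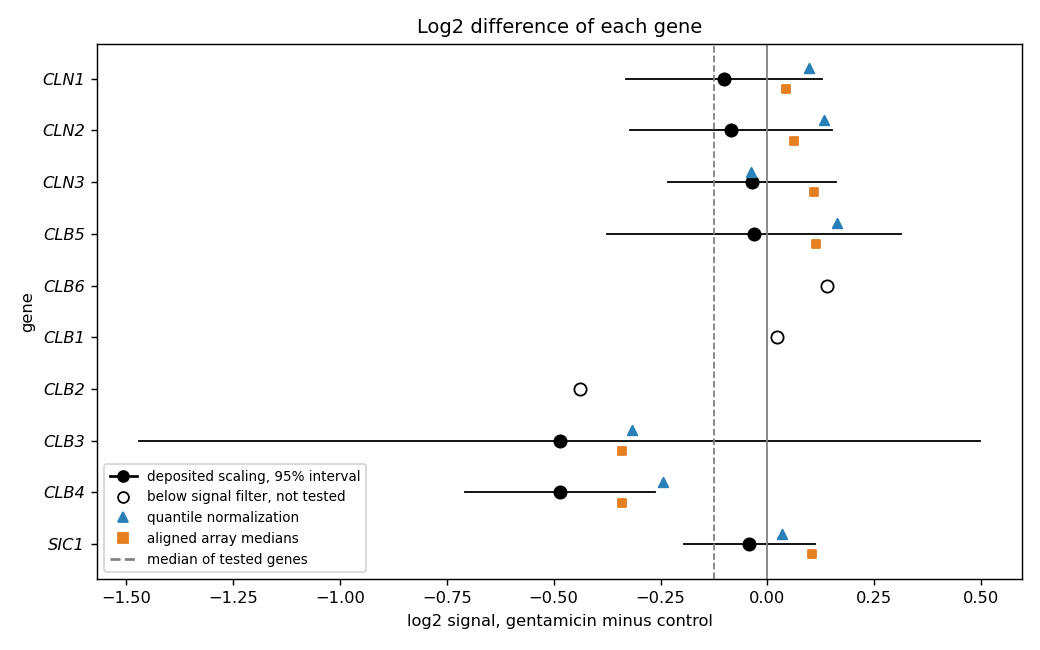
Log2 difference in signal, gentamicin minus control (horizontal axis), for each gene (vertical axis). Black points with lines are the log2 differences and 95% intervals of the 7 tested genes, open points are the 3 genes below the signal filter, blue triangles and orange squares are the same differences after quantile normalization and with aligned array medians, and the dashed line is the median of tested genes, -0.12. The interval of *CLB4* lies wholly below 0, that of *CLB3* runs from -1.47 to 0.50, and the G1 cyclins lie near 0 with signs that change with the scaling, in *CLN3* with aligned medians alone.

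*CLN1*, *CLN2* and the 6 *CLB* genes form 4 paralog pairs, and each pair was tested for unequal change with the log2 ratio of its 2 signals on every array. The level of one probe set cannot be set against that of another, so only the change of the ratio between groups is read. The *CLB1* over *CLB2* log2 ratio was 0.46, 0.47, 0.65 and 0.41 with gentamicin, against 0.28, 0.03, -0.52 and 0.36 in controls. All 4 gentamicin values lay above all 4 controls, with a difference of 0.46 ± 0.21 (SE), an exact two-sided permutation p of 0.0286. No smaller p is possible with 4 arrays a group, and adjusted over the 4 pairs it was 0.114. A pair that changes alone can reach no lower adjusted p here, so the adjusted value cannot decide whether this pair changed unequally. Control 3 carried much of this, since it had the lowest *CLB1* signal, and leaving out single arrays gave differences from 0.27 to 0.57. *CLB1* and *CLB2* were both dim, which limits the precision of their ratio.

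For the other pairs the ratios overlapped between groups. The *CLN1* over *CLN2* ratio differed by -0.02 ± 0.18 (SE, exact permutation p = 0.943, adjusted 1). The *CLB5* over *CLB6* ratio differed by -0.17 ± 0.21 (exact permutation p = 0.429, adjusted 0.857), with *CLB6* in the range of absent transcripts. The *CLB3* over *CLB4* ratio averaged 1.34 ± 0.955 with gentamicin and 1.34 ± 0.681 in controls (SD, n = 4 each), with gentamicin 5 at -0.06 and control 1 at 0.34 against 1.49 to 2.09 on the other 6 arrays. These ratios do not show that the members of a pair changed alike, since their errors are wide. In the R64 gene table *CLB1* neighbours *CLB6* and *CLB2* neighbours *CLB5* with 0 annotated genes between them. In the second of these neighbour pairs *CLB2* was lower without overlap while *CLB5* had overlapping groups.

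**Figure D3:**
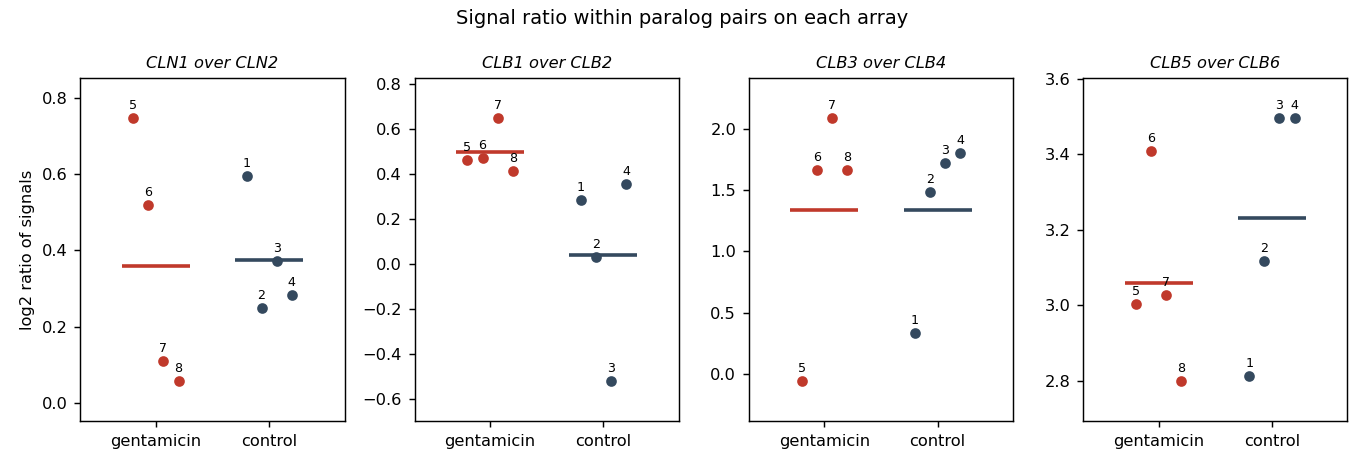
Log2 ratio of signals within each of the 4 paralog pairs (vertical axes, each on its own scale and not from 0) on gentamicin arrays in red at the left and control arrays in dark blue at the right, with sample numbers and the group mean as a line. The *CLB1* over *CLB2* ratio is higher on all 4 gentamicin arrays than on all 4 controls, and gentamicin 5 and control 1 are the low points of *CLB3* over *CLB4*.

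Genes transcribed with *CLB2* depended on the scaling as a list. Of 8 tested genes of the *CLB2* cluster, the mitotic genes transcribed with *CLB2*, 7 fell and 0 rose (0 at an unadjusted p under 0.05), with a median log2 difference of -0.35, where 31.3% of all tested genes were lower. *CDC20*, which activates the anaphase-promoting complex against mitotic cyclins, gave 371, 319, 369 and 358 with gentamicin, against 781, 770, 803 and 797 in controls. *CDC20* fell 2.23-fold (limma adjusted p = 8.51e-06), far beyond the spread within groups. *ALK1*, a mitotic kinase, fell 1.42-fold and *CHS2*, the chitin synthase of the septum, fell 1.31-fold. The call of *CHS2* was lost after quantile normalization and with aligned medians (adjusted p = 0.222 and 0.0779), and that of *ALK1* after quantile normalization (0.104). After quantile normalization 1 of 8 was lower, against 19.8% of all tested genes, and with aligned medians 2 of 8, against 17.7%. The count also depended on single arrays, with 4 of 8 lower without control 2 or control 3 and 5 to 7 without any of the others.

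Of 12 tested regulators of G1 cyclin transcription, 4 fell and 0 rose (0 rose at an unadjusted p under 0.05), with a median log2 difference of -0.13. Both the count and the median were near those of all tested genes, of which 31.3% were lower. After quantile normalization 1 of the 12 was lower and with aligned medians 2, against 19.8% and 17.7% of all tested genes. *SWI6*, the subunit that SBF and MBF share, gave 332, 375, 335 and 284 with gentamicin, against 451, 457, 473 and 478 in controls, and fell 1.41-fold (adjusted p = 0.00258, but 0.0504 after quantile normalization). *WHI3*, which binds *CLN3* mRNA and holds back its translation, gave 192, 205, 155 and 216 with gentamicin, against 335, 288, 304 and 281 in controls, and fell 1.58-fold (adjusted p = 0.00184). *MSA2*, an SBF and MBF partner, fell 1.17-fold, a call lost under both other scalings and without gentamicin 6 or 8 or any 1 control (adjusted p from 0.0502 to 0.119). *WHI5*, the repressor that Cln3 inactivates, had a log2 difference of -0.07 (adjusted p = 0.667) and *MBP1* one of -0.20 (adjusted p = 0.210). *SWI4* was below the filter, at 97.2 ± 10.1 with gentamicin and 132 ± 16.2 in controls (SD, n = 4 each), without overlap. Of the 12, 2 were lower without gentamicin 6, gentamicin 8, control 2 or control 4, and 3 without any of the others.

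Of 15 tested targets of SBF and MBF outside the Cln and Clb genes, a list that includes the Pho85 cyclins *PCL1* and *PCL2*, 9 fell and 1 rose, with a median log2 difference of -0.39, where 31.3% of all tested genes were lower. After quantile normalization 6 fell and 2 rose, against 19.8% of all tested genes lower, and with aligned medians 7 fell and 1 rose, against 17.7%. *SMC3*, a cohesin subunit, fell 1.76-fold, *RAD27*, a nuclease of Okazaki fragment processing, fell 1.65-fold, and *POL1*, the catalytic subunit of DNA polymerase alpha, fell 1.50-fold (adjusted p = 0.000377, 0.000528 and 0.000742). These are known as genes of the G1 to S transition, as are *CLN1*, *CLN2* and *CLB5*, none of which was called. *CRH1*, a cell wall transglycosylase, rose 1.58-fold. Whether the cyclins differ from the other targets as a set was not tested.

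The kinase that all these cyclins bind could not be placed firmly. *CDC28* gave 678, 141, 698 and 555 with gentamicin, against 916, 931, 1021 and 777 in controls. All gentamicin values were below all controls, but gentamicin 6 lay far below the rest. The log2 difference was -1.05 ± 0.45 (SE, adjusted p = 0.0856), and without gentamicin 6 it was -0.50 (adjusted p = 0.0107). Of the 7 tested genes of the kinase and its modifiers, 3 fell and 0 rose (0 at an unadjusted p under 0.05), where 31.3% of all tested genes were lower. The counts were also 3 and 0 after quantile normalization and with aligned medians, against 19.8% and 17.7% of all tested genes lower. *CKS1*, a small subunit of the kinase, fell 1.48-fold, and *HSL7*, which acts against the inhibitory kinase Swe1, fell 1.42-fold. *FAR1*, which inhibits Cln kinases in cells exposed to mating pheromone, gave 345, 288, 262 and 251 with gentamicin, against 1859, 1819, 1845 and 1619 in controls, and fell 6.27-fold (adjusted p = 6.87e-07). *FAR1* thus differed by far more than *SIC1*, the inhibitor of S and M phase cyclin kinase, which had a 95% interval from -0.20 to 0.11 on the log2 scale.

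Markers of both mating types were looked up beside *FAR1*. The summed signal of 4 alpha-cell markers ran from 15251 to 16361 on gentamicin arrays and from 30998 to 32905 on controls. All 4 were called lower, where 31.3% of all tested genes were. The summed signal of 6 a-cell markers ran from 569 to 737 with gentamicin and from 1242 to 1437 in controls, with *STE2* and *AGA2* in the range of absent transcripts. Most of that gap came from *MFA1*, the a-factor precursor and the single tested gene of the 6, which averaged 164 ± 56.0 with gentamicin and 727 ± 89.7 in controls (SD, n = 4 each) and was called lower. *MFA1* has 2 probe sets, and the brighter one, used here, is by its name of a class that can be shared between sequences. With no filter 3 of the 6 were called lower, *MFA1*, *BAR1* and *AGA2*, where 1672 of all 5656 genes were. *BAR1* averaged 126 ± 20.9 with gentamicin and 195 ± 6.17 in controls (SD, n = 4 each), without overlap. The groups overlapped for *STE2*, *MFA2* and *STE6*, and *STE6* averaged 134 ± 20.9 with gentamicin and 131 ± 48.3 in controls. The part of these in the cyclin values was not tested. Of the meiosis markers, which matter because mitotic cyclins other than *CLB2* are also used in meiosis, *IME1* was tested and not called (log2 difference -0.28, adjusted p = 0.171), but was called lower without gentamicin 6 (adjusted p = 0.0243). *SPO11*, *SPO13* and *IME2* were in the range of absent transcripts.

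For genes that destroy cyclins the counts were near or below the 31.3% of all tested genes that were lower. Of 6 tested subunits of SCF, the ubiquitin ligase that marks Cln1, Cln2 and Sic1, *HRT1* alone fell, by 1.18-fold (0 rose, with limma and at an unadjusted p under 0.05), and the call was lost with aligned medians (adjusted p = 0.376). *CDC4*, the subunit that recognises Sic1, had a log2 difference of -0.22 (adjusted p = 0.226). Of 12 tested subunits and activators of the anaphase-promoting complex, 3 fell, namely *CDC20*, *CDH1* and *MND2*, and 0 rose (0 at an unadjusted p under 0.05). *CDH1*, which acts against Clb2 in late mitosis and G1, fell 1.29-fold and *MND2* fell 1.17-fold, both calls lost under both other scalings, while *CDC20* kept its call. The call of *MND2* was also lost without gentamicin 6, gentamicin 8, control 2 or control 3 (adjusted p from 0.0592 to 0.0751).

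Of 4 tested transcription factors of mitotic and early G1 genes, 1 fell and 0 rose (0 at an unadjusted p under 0.05), where 31.3% of all tested genes were lower. The 1 that fell was *FKH1*, a forkhead factor of *CLB2*-cluster genes, which fell 1.53-fold (adjusted p = 0.00562, but 0.0568 after quantile normalization), and was below the filter without control 4. *SWI5*, the activator of *SIC1*, was below the filter, at 183 ± 27.1 with gentamicin and 203 ± 13.7 in controls (SD, n = 4 each), with overlapping groups.

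Among cyclins of other kinases, single genes went both ways. Of 9 tested cyclins of the kinase Pho85, 2 rose and 1 fell, where 15.5% of all tested genes were higher and 31.3% lower. The counts were 2 and 1 under both other scalings as well. Of all tested genes, 18.8% were then higher and 19.8% lower after quantile normalization, and 23.9% and 17.7% with aligned medians. *PCL5*, which directs destruction of the amino acid regulator Gcn4, gave 6541, 5276, 6160 and 6128 with gentamicin, against 3087, 2892, 1816 and 3026 in controls, and rose 2.27-fold (adjusted p = 0.000441). *CLG1* rose 1.20-fold, a call lost without gentamicin 7, gentamicin 8, control 2 or control 3 (adjusted p from 0.0546 to 0.0650). *PCL2*, a G1 cyclin of Pho85 under SBF, gave 238, 406, 436 and 480 with gentamicin, against 616, 731, 706 and 772 in controls. *PCL2* fell 1.87-fold (adjusted p = 0.00568), while *PCL1*, also a Pho85 cyclin, had a log2 difference of -0.20 (adjusted p = 0.108). Of 4 cyclins of transcription kinases, *CTK2* alone fell, by 1.31-fold, where 31.3% of all tested genes were lower. Its call was lost under both other scalings, and 2 of the 4 were lower without gentamicin 7 or control 1. Without gentamicin 8 or control 4, 2 of the Pho85 cyclins were lower.

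**Figure D4:**
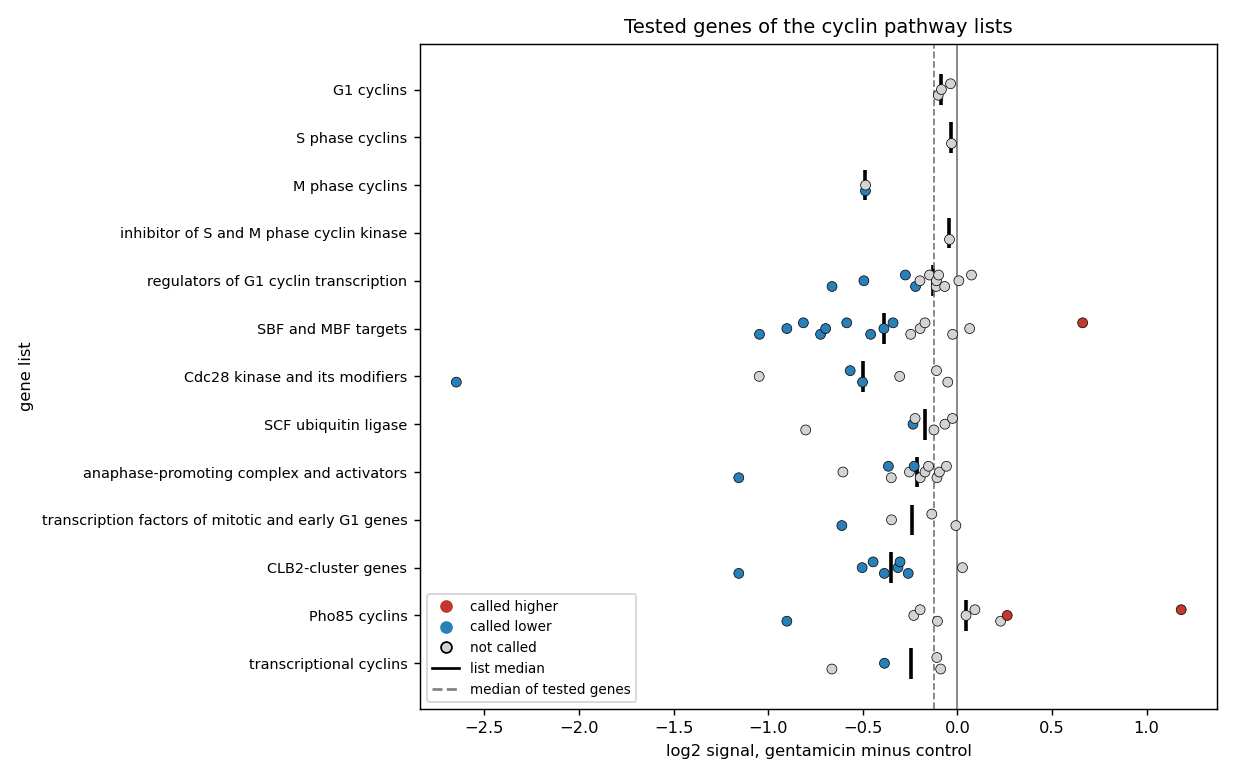
Log2 difference in signal, gentamicin minus control (horizontal axis), of each tested gene in the cyclin groups and the lists around them (vertical axis). Red points were called higher, blue points called lower and grey points not called, short black lines are list medians, and the dashed line is the median of tested genes, -0.12. In the cyclin groups *CLB4* is the gene called, beside *CLB3* at the same difference, while *FAR1* at -2.65 and *PCL5* at 1.18 are the extremes of the genes plotted, which leave out the cell type markers.

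The genes whose log2 signal followed each tested cyclin most closely over the 8 arrays were listed as a description. These were picked as the 3 highest Pearson r of all tested genes and share the arrays' scaling. *CLB4* was most like *RPS7B*, *SAH1* and *ECT1* (r = 0.992, 0.987 and 0.984), each of which was also called lower. *CLB3* was most like *NTG2*, *NGL2* and *RDS2* (r = 0.992, 0.990 and 0.984). For *CLN1* these were *MPD1*, *OAR1* and *PET9* (r from 0.917 to 0.932), for *CLN2* *LEO1*, *CPR8* and *TRS85* (r from 0.914 to 0.920), and for *CLN3* *SKP1*, *HXT6* and *SHE9* (r from 0.891 to 0.903). *CLB5* was most like *RPR1*, *RPL7A* and *ACM1* (r from 0.897 to 0.911), and *SIC1* was most like *INO80*, *ALG13* and *YER084W* (r from 0.925 to 0.928). Apart from those of *CLB4*, none of these genes was called. The pick was made over both groups, so it largely fixes which of these genes were called.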

How the data were processed

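The authors deposited linear intensity values, 1 per array for each of 9335 probe sets. The submitters' processing notes name MAS5 without a version, and the values show scaling to a common trimmed mean. The platform annotation gave each probe set its gene, and gene identifiers were matched to current symbols in the R64 table (6504 of 6504 probe sets with 1 gene). By their names, all 10 probe sets of the cyclin genes and *SIC1* belong to the class not shared between sequences. Each gene took its brightest probe set, and genes in the lowest 20% by mean log2 signal were not tested. Gentamicin was compared with control on log2 signals with no offset by limma 3.58.1 (R 4.3.3; lmFit and trended eBayes), adjusting p-values by Benjamini-Hochberg over 4524 genes at a threshold of 0.05. Paralog ratios went through exact permutation tests (two-sided, SciPy 1.17.1). Both tests were also run on simulated data, as a check of the code alone. Only 4 arrays per group limit the precision, and no batch is labelled.

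The text names all 10 genes, up to 3 called genes per direction of each list, a set of regulators, cell type markers, and the 3 genes most like each tested cyclin. Genes and lists were chosen with earlier results of these data known. Of the lists chosen, 1 is not reported here. Alternatives were quantile normalization, aligned medians, an offset of 8.17, no filter, a filter of 40%, no variance trend, array weights, medians over probe sets and each array left out. Leaving out gentamicin 5 and control 1 together was added after seeing the data.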

Additional observations from a re-analysis of the deposited data

Results flagged for a closer look

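In each group of 4 arrays, values were looked for that stood apart from the other 3 by Dixon's criterion on log2 signals. This was done for 52 named genes, or 104 groups, and 10 groups had such a value, where chance gives about 1 in 20. Over all 4524 tested genes, a lone low value was found for 304 among gentamicin arrays and 335 among control arrays. Lone high values were not counted there, while the 10 include both kinds. The 10 are therefore not read as a trait of the named genes. Among the cyclins, *CLB3* was at 223 on gentamicin 5, against 705 to 872 on the other gentamicin arrays. *CLB5* was at 508 on gentamicin 8, against 654 to 679 on the others. *CLB4* was at 361 on control 1, against 299 to 308 on the others.

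Among genes around the cyclins, *CDC28* was at 141 on gentamicin 6, against 555 to 698, and *IME1* was at 551 on gentamicin 6, against 362 to 383. *PCL5* was at 1816 on control 3, against 2892 to 3087, and *CRH1* was at 2665 on control 3, against 3136 to 3242. *FAR1* was at 1619 on control 4, against 1819 to 1859. Of the a-cell markers, *STE2* was at 29.9 on gentamicin 7, against 40.1 to 41.0, and *STE6* was at 58.7 on control 1, against 147 to 159.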

How the results depend on the processing

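No paired analysis was possible because the groups share no replicate numbers. Over all genes, 702 were higher and 1414 lower, with 850 and 894 after quantile normalization and 1079 and 799 with aligned medians. *CLB4* kept its call under every alternative that tested it except quantile normalization (-0.24, adjusted p = 0.101), and with the lowest 40% of genes left out it was not tested. *CLB2*, untested, moved to -0.26 after quantile normalization and to -0.29 with aligned medians. Signs turned, with no call after the turn, after quantile normalization for *CLN1* (0.10), *CLN2* (0.13), *CLB5* (0.16), *SIC1* (0.035), *WHI5* (0.17), *MBP1* (0.032), *CDC4* (0.014) and *MND2* (0.010), and with aligned medians for *CLN1* (0.045), *CLN2* (0.062), *CLN3* (0.11), *CLB5* (0.11), *SIC1* (0.10) and *WHI5* (0.079). *CLN3* also turned with array weights (0.023) and without gentamicin 5 and control 1 (0.070). With single arrays left out, log2 differences ran from -0.078 to 0.044 for *CLN3*, from -0.13 to 0.067 for *CLB5* and from -0.76 to -0.03 for *CLB3*. *CLB1*, untested, turned to -0.0021 without control 2 and to -0.13 without control 3. The change of the *CLN1* over *CLN2* ratio ran from -0.15 to 0.084, and that of *CLB3* over *CLB4* from -0.33 to 0.47. The *CLB3* over *CLB4* change was -0.071 after quantile normalization and -0.0053 with an offset. The cause was not tested. Of the lists, the number called lower under quantile normalization and with aligned medians was 1 and 2, against 4 as reported, for G1 regulators, 1 and 2, against 7, for the *CLB2* cluster, and 1 and 1, against 3, for the anaphase-promoting complex. It was 0 under quantile normalization for the mitotic factors, 0 with aligned medians for SCF and 0 under both for transcriptional cyclins, against 1 as reported for each. Signals near the highest control for absent transcripts limit the precision for *CLB1*, *CLB2* and *CLB6*.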
